A study of Mus musculus with 6 samples.

Results

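The genes described here are 10 CC chemokines, Ccl2, Ccl3, Ccl4, Ccl5, Ccl6, Ccl7, Ccl8, Ccl9, Ccl11 (eotaxin) and Ccl12, taken by symbol from the 18005 genes listed in the count table. Transcripts were measured by RNA sequencing, with an mRNA library kit, of heart tissue from 3 young and 3 old mice. Every animal is labelled wild type (WT) and untreated, and the series title sets the comparison in age-related pathological cardiac hypertrophy. The labels give no age in months, strain or sex and do not state whether a library holds 1 heart or a pool; their titles number the mice.

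CC chemokines are small secreted proteins that attract leukocytes along a gradient by binding G protein-coupled receptors of the CCR family. Ccl2, Ccl7, Ccl8 and Ccl12 belong to the monocyte chemoattractant group, whose best known receptor on monocytes is Ccr2, and eotaxin (Ccl11) attracts eosinophils through Ccr3. Ccl3, Ccl4 and Ccl5 attract macrophages and T cells, and Ccl6 and Ccl9 are rodent ligands of Ccr1. In the heart these proteins are known from resident macrophages, fibroblasts and endothelial cells, and Ccl2 for the recruitment of monocytes after injury.

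Library totals lay between 11295280 and 12514005 counts, so that 1 count was worth 0.0799 to 0.0885 CPM (counts scaled to the library total). The 10 cardiomyocyte markers summed to between 62060 and 65630 CPM in young and between 72570 and 75560 CPM in old libraries, so cardiac transcripts were abundant in each. Of these markers 2 (Tnni3 and Actc1) were called higher, 1 (Ttn) lower and 7 were not called. Actc1 had 104446, 90044 and 110550 raw counts in young and 193537, 216770 and 186366 in old libraries. The part of the higher old sums in the results was not tested. The quasi-likelihood F test of edgeR was run across all genes, and a gene was called where its Benjamini-Hochberg adjusted p was under 0.05. Each log2 fold change sets old against young hearts and carries its standard error (SE), and CPM values were scaled with TMM factors and are given as mean ± SD with n = 3 libraries per group. Of 12893 genes tested, 2835 were called, 1467 higher and 1368 lower in old hearts. The higher genes were 51.7% of the calls under TMM scaling, 40.2% with upper-quartile factors and 32.7% with library size alone. P-values weigh the difference between the groups against the spread between these libraries.

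Eotaxin (Ccl11), the monocyte chemoattractants Ccl2, Ccl7 and Ccl8, and the rodent chemokines Ccl6 and Ccl9 were higher in old hearts. Of the 10 members, 8 passed the filter on low counts, and 6 of these were called higher and 0 lower. Over all tested genes 11.4% were called higher and 10.6% lower. For the same 6 members all 3 old libraries lay above all 3 young ones, which was the case for 19.6% of all tested genes. The median log2 fold change was 1.11 over the 8 tested members and 0.94 over all 10 when no filter was used, against -0.01 and 0.01 over all genes in the same fits. In bulk tissue a change in the number of cells that make a transcript and a change in transcript per cell cannot be told apart.

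Ccl11, the eosinophil chemoattractant eotaxin, changed most. Its raw counts were 50, 63 and 49 in young and 186, 238 and 300 in old libraries. The lowest old value was thus far above the highest young one. Ccl11 stood at 4.41 ± 0.975 CPM in young and 21.0 ± 4.78 CPM in old hearts. The log2 fold change was 2.26 ± 0.19 (edgeR adjusted p = 1.77e-05), a 4.79-fold rise with a 95% confidence interval of 3.57 to 6.43. It ranked 60th by p among all tested genes, and with each library left out in turn the log2 value stayed between 2.09 and 2.45.

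Ccl8, of the monocyte chemoattractant group by sequence and a Ccr8 ligand in mice, was also higher in old hearts. It had 25, 36 and 30 raw counts in young and 97, 92 and 95 in old libraries. The 3 old values thus lay close together, at 8.26 ± 0.320 CPM against 2.48 ± 0.620 CPM in young hearts. Counting error at such counts exceeds these differences, so with n = 3 the closeness cannot be read as a trait of Ccl8. The log2 fold change was 1.74 ± 0.19 (edgeR adjusted p = 0.000103) with a 95% interval of 1.32 to 2.16, a 3.35-fold rise. Ccr8 itself had 0 counts in every library.

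Ccl2 and Ccl7, the chemoattractants MCP-1 and MCP-3, rose by similar amounts and spread alike among the old hearts. Ccl2 had 89, 72 and 54 raw counts in young and 191, 107 and 279 in old libraries. Old 3 held the most and old 2 the least of the old group, and old 2, at 9.25 CPM, was the nearest to the highest young library, at 6.95 CPM. Ccl2 was at 5.82 ± 1.45 CPM in young and 16.8 ± 7.47 CPM in old hearts, 1.53 ± 0.30 higher on the log2 scale (edgeR adjusted p = 0.00413). Ccl7 had 29, 27 and 18 raw counts in young and 69, 50 and 91 in old libraries. The old libraries took the same order as for Ccl2. Ccl7 was at 2.01 ± 0.537 CPM in young and 6.11 ± 1.78 CPM in old hearts, 1.61 ± 0.27 higher on the log2 scale (edgeR adjusted p = 0.00182). Library old 3 was also by far the highest for the immediate early gene Fos, at 332 CPM against 31.9 in old 1 and 47.8 in old 2, and the part of this in the Ccl2 and Ccl7 values was not tested. Without old 3 the log2 fold change was 1.18 for Ccl2 and 1.39 for Ccl7, and both were still called.

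Ccl12, a Ccr2 ligand of mice and the remaining gene of this group, did not pass the test. It had 37, 49 and 24 raw counts in young and 31, 18 and 22 in old libraries. The groups overlapped, with young 2 highest. Ccl12 was at 3.02 ± 1.23 CPM in young and 2.07 ± 0.611 CPM in old hearts, a log2 value of -0.53 ± 0.33 (edgeR adjusted p = 0.27). The 95% interval of its fold, 0.421 to 1.14, lies below the intervals of Ccl2, Ccl7, Ccl8 and Ccl11. Without young 2 the log2 value was -0.20.

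**Figure D1:**
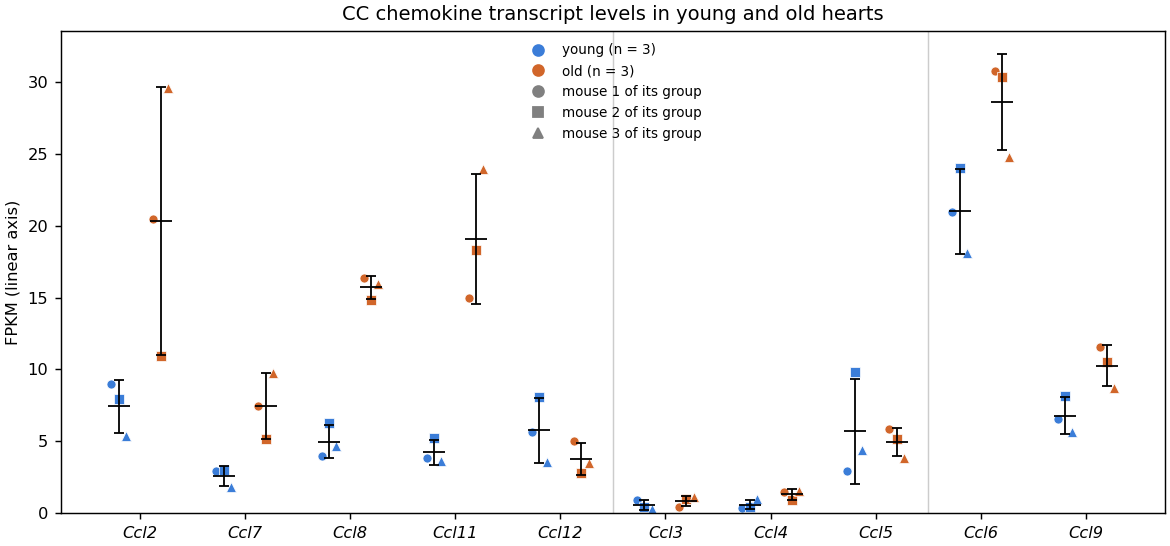
Transcript levels of the 10 CC chemokines in FPKM (linear axis), with each symbol a library, blue for young and orange for old hearts, and black bars for the mean and SD of 3 libraries. Eotaxin (Ccl11) stood at 14.95 to 23.92 FPKM in old against 3.65 to 5.20 FPKM in young libraries, while Ccl5, Ccl12 and the very low Ccl3 and Ccl4 overlapped between the groups.

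By RefSeq coordinates (GRCm38.p6), Ccl2, Ccl7, Ccl11, Ccl12, Ccl8 and Ccl1 follow each other on chromosome 11 with no other protein-coding gene between them. Ccl12 therefore lies between Ccl11 and Ccl8, the members with the highest fold changes. Ccl1, a Ccr8 ligand at the end of this row, had 0 counts in every library. The promoter table of the same assembly held 5 of the 10 members (Ccl3, Ccl6, Ccl8, Ccl9 and Ccl12). The neighbours Ccl8 and Ccl12 are shown because the first rose and the second did not pass the test. Each is the stretch of 250 bases before the transcript start, 5′ to 3′, on the plus strand at chr11:82114935-82115184 and chr11:82101595-82101844 (GRCm38.p6). Capitals mark matches to the motifs searched, here the TATA box.
Ccl8: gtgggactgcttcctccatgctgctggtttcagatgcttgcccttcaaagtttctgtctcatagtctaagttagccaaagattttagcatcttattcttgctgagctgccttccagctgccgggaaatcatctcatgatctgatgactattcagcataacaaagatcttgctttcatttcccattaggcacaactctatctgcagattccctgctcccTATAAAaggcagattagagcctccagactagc
Ccl12: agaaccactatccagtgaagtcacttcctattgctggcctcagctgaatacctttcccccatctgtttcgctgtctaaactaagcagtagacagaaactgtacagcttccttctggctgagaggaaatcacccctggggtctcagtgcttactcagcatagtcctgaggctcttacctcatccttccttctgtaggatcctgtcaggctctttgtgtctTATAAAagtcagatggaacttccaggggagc
Both hold the letters TATAAA, 32 to 27 bases before the start in Ccl8 and 31 to 26 in Ccl12. These letters were found on either strand in 12.97% of the 27025 upstream stretches of this length. In a global alignment 150 of 230 aligned bases of the pair were identical, 55.6% of all columns, and the other 9 pairs among the 5 promoters ranged from 43.7% to 50.4%. The C/EBP motif was searched on both strands as TTNNGNAA, the AP-1 motif as TGANTCA, the STAT motif as TTCNNNGAA and the heat shock element as GAANNTTC. The STAT6 motif and the kappaB consensus were searched likewise. None of these letters occurred in the Ccl8 or Ccl12 stretch.

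Ccl6 and Ccl9, also known as C10 and MIP-1 gamma and both made by myeloid cells, rose by less than the 4 genes above. Ccl6 had 370, 389 and 325 raw counts in young and 512, 528 and 416 in old libraries. The lowest old value, in old 3, was 36.1 CPM and the highest young value, in young 2, was 34.2 CPM. Ccl6 was at 29.4 ± 4.53 CPM in young and 42.3 ± 5.44 CPM in old hearts. The log2 fold change was 0.53 ± 0.12 (edgeR adjusted p = 0.0112), a 1.44-fold rise. The call was lost without young 3 (edgeR adjusted p = 0.0615, 0.00208 to 0.106 over all alternatives). Ccl9 had 242, 277 and 211 raw counts in young and 402, 384 and 307 in old libraries. Here too old 3 was lowest of the old group, the reverse of its place for Ccl2, Ccl7 and Ccl11. Ccl9 was at 19.9 ± 4.09 CPM in young and 31.8 ± 4.65 CPM in old hearts, 0.68 ± 0.15 higher on the log2 scale (edgeR adjusted p = 0.00705).

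Ccl9 and Ccl6 are next to each other in the second chemokine row of chromosome 11, which runs Ccl5, Ccl9, Ccl6, Ccl3 and Ccl4. Their upstream stretches are shown since both neighbours rose. They lie on the minus strand at chr11:83578637-83578886 and chr11:83593088-83593337 (RefSeq, GRCm38.p6). Capitals mark matches to the TATA, C/EBP, AP-1 and kappaB motifs on either strand.
Ccl9: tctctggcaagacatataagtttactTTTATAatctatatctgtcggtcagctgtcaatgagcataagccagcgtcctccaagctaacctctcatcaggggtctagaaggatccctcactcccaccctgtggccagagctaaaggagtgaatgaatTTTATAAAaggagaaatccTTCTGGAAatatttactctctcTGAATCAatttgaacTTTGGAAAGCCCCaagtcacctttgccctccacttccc
Ccl6: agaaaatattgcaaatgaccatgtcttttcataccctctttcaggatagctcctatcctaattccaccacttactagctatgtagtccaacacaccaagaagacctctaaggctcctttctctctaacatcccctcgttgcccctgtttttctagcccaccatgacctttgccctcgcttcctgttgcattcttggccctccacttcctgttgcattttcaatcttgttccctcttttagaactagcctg
The Ccl9 stretch held the kappaB consensus 35 to 26 bases before the start, which 3.75% of all stretches hold, overlapping a C/EBP match at 38 to 31. It also held an AP-1 match at 53 to 47 bases (6.87% of all stretches) and a further C/EBP match at 75 to 68 (36.9% of all stretches). Its TATA box matches lay at 224 to 219, 94 to 89 and 92 to 87 bases, the last 2 of them overlapping on opposite strands. The Ccl6 stretch held none of the motifs searched, and the pair shared 47.2% of alignment columns.

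Ccl5 (RANTES), made mainly by T cells, natural killer cells and macrophages, did not differ detectably. It had 19, 59 and 29 raw counts in young and 36, 33 and 24 in old libraries. All old values lay within the young range, and young 2 was the highest of all. Young 2 also stood apart in markers of other cells. The natural killer and T cell gene Nkg7 had 24 raw counts there against 6 and 10 in the other young libraries. The red cell gene Hba-a1 was at 3886 CPM in young 2 against 518 and 1932 CPM, and the mesothelial gene Upk3b at 1.58 against 19.6 and 15.9 CPM. The part of these in the young 2 values of Ccl5 and Ccl12 was not tested. Ccl5 was at 2.97 ± 1.95 CPM in young and 2.71 ± 0.568 CPM in old hearts, a log2 value of -0.11 ± 0.39 (edgeR adjusted p = 0.86). The interval of its fold, 0.514 to 1.67, is wide. Without young 2 the log2 value was 0.53, without old 3 it was 0.06, and neither was called.

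Ccl3 and Ccl4 (MIP-1 alpha and beta), early products of activated macrophages, were too low to pass the filter. Ccl3 had 9, 4 and 3 raw counts in young and 4, 9 and 10 in old libraries, 16 against 23 in sum. Ccl4 had 3, 3 and 8 raw counts in young and 11, 7 and 12 in old libraries, 14 against 30 in sum. For both the groups overlapped, and at this depth no difference was detectable. With no filter the log2 values were 0.62 ± 0.58 for Ccl3 (edgeR adjusted p = 0.53) and 1.19 ± 0.55 for Ccl4 (edgeR adjusted p = 0.16). In RefSeq the span of Ccl4 overlaps that of Ccl3. Whether their exons share bases was not examined, and the strand setting of the counting is not known. It is therefore open whether any counted reads are affected.

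Compared per length, in the FPKM values deposited by the authors, the order of the members changed between the groups. In young hearts Ccl6 led with 21.0 ± 2.95 FPKM. Ccl2 (7.42 ± 1.86), Ccl9 (6.77 ± 1.29), Ccl12 (5.76 ± 2.26), Ccl5 (5.69 ± 3.65), Ccl8 (4.97 ± 1.15) and Ccl11 (4.21 ± 0.856 FPKM) followed, each within the SD of its neighbour. Ccl7 was at 2.58 ± 0.675 FPKM, and Ccl4 and Ccl3 were at 0.580 ± 0.337 and 0.559 ± 0.326 FPKM. In old hearts Ccl6 again led with 28.6 ± 3.33 FPKM, next to Ccl2 with 20.3 ± 9.33, Ccl11 with 19.1 ± 4.53 and Ccl8 with 15.7 ± 0.782 FPKM. Of these, Ccl2 lay within its SD of Ccl6, Ccl11 within its SD of both Ccl2 and Ccl8. Ccl9 (10.3 ± 1.42), Ccl7 (7.43 ± 2.29), Ccl5 (4.94 ± 1.0), Ccl12 (3.76 ± 1.13), Ccl4 (1.29 ± 0.364) and Ccl3 (0.820 ± 0.339 FPKM) came after them. Ccl11 moved from the seventh to the third place and Ccl12 from the fourth to the eighth.

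The summed level of the 10 genes ranged from 48.4 to 73.2 FPKM in young and from 99.8 to 123 FPKM in old libraries. Ccl11 made up 7.10% ± 0.447 of this sum in young and 17.0% ± 3.41 in old hearts, and Ccl8 8.40% ± 1.36 and 14.1% ± 0.988 (SD, n = 3). The share of Ccl12 was 9.43% ± 1.86 in young and 3.34% ± 0.896 in old hearts, and that of Ccl6 35.6% ± 2.51 and 25.8% ± 5.18. These shares add up to a fixed whole, so each depends on the rest.

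**Figure D2:**
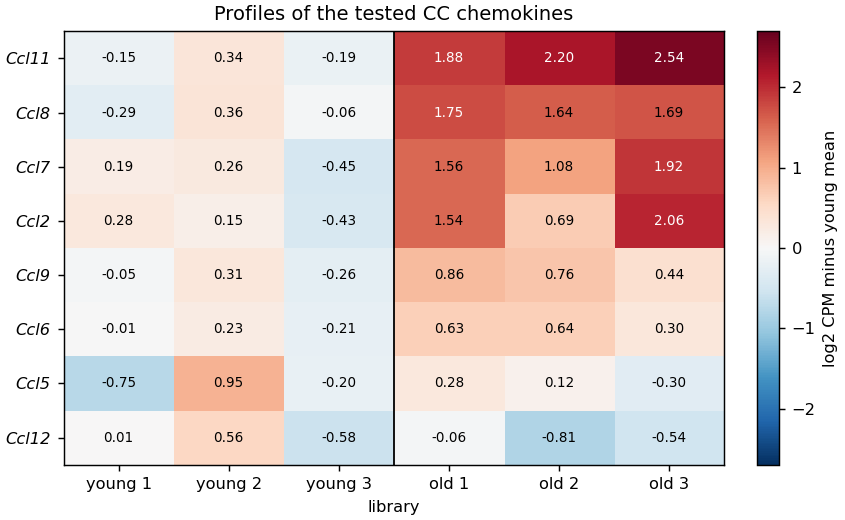
Log2 CPM of each tested CC chemokine (rows) in each library (columns), minus the mean of the 3 young libraries, with red for higher and blue for lower values. Ccl11, Ccl8, Ccl7 and Ccl2 were raised in every old library, Ccl2 and Ccl7 most in old 3, whereas Ccl9 and Ccl6 were raised least there and Ccl12 was below the young mean in each old library.

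Among 10 CC chemokine receptor genes examined 3 passed the filter, and of these 1, Ccr1, was called lower and Ccr2 and Ccr7 were not called. The share called lower over all tested genes was 10.6%. Ccr1, the receptor of Ccl6, Ccl9, Ccl3 and Ccl5, had 60, 37 and 36 raw counts in young and 18, 24 and 12 in old libraries. All old values lay below the young ones. It was at 3.57 ± 0.990 CPM in young and 1.57 ± 0.517 CPM in old hearts, with a log2 change of -1.18 ± 0.30 (edgeR adjusted p = 0.0159). This call was lost without young 1 (edgeR adjusted p = 0.0856, 0.00926 to 0.0856 over all alternatives). Ccr2, the monocyte receptor of Ccl2, Ccl7 and Ccl12, had 62, 79 and 58 raw counts in young and 44, 41 and 48 in old libraries. The groups did not overlap, but the log2 value of -0.48 ± 0.21 did not pass (edgeR adjusted p = 0.12), with a 95% interval of -0.93 to -0.03. Ccr7, the receptor of the lymph node chemokines, did not pass either (0.40 ± 0.39, 95% interval -0.46 to 1.25, edgeR adjusted p = 0.50). Ccr3, the eotaxin receptor, had 0, 1 and 0 raw counts in young and 0, 0 and 4 in old libraries. Ccr1, Ccr1l1, Ccr3 and Ccr2 follow each other in this order on chromosome 9.

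Of the atypical receptors and the CC chemokine peptidase gene Dpp4, 2 of 4 tested genes were higher, against 11.4% of all tested genes. Ackr2, a decoy receptor that takes up inflammatory CC chemokines for breakdown, was at 2.33 ± 0.306 CPM in young and 4.60 ± 1.16 CPM in old hearts. The old libraries, at 5.84, 3.54 and 4.42 CPM, all lay above the young ones, at 2.34, 2.02 and 2.63 CPM. Its log2 fold change was 0.97 ± 0.24 (edgeR adjusted p = 0.0132), a call lost without old 1 (edgeR adjusted p = 0.0568, 0.00756 to 0.0597 over all alternatives). Ccrl2, which binds the chemoattractant chemerin without signalling, rose by 0.60 ± 0.10, from 15.4 ± 0.972 to 23.2 ± 1.68 CPM (edgeR adjusted p = 0.00177).

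**Figure D3:**
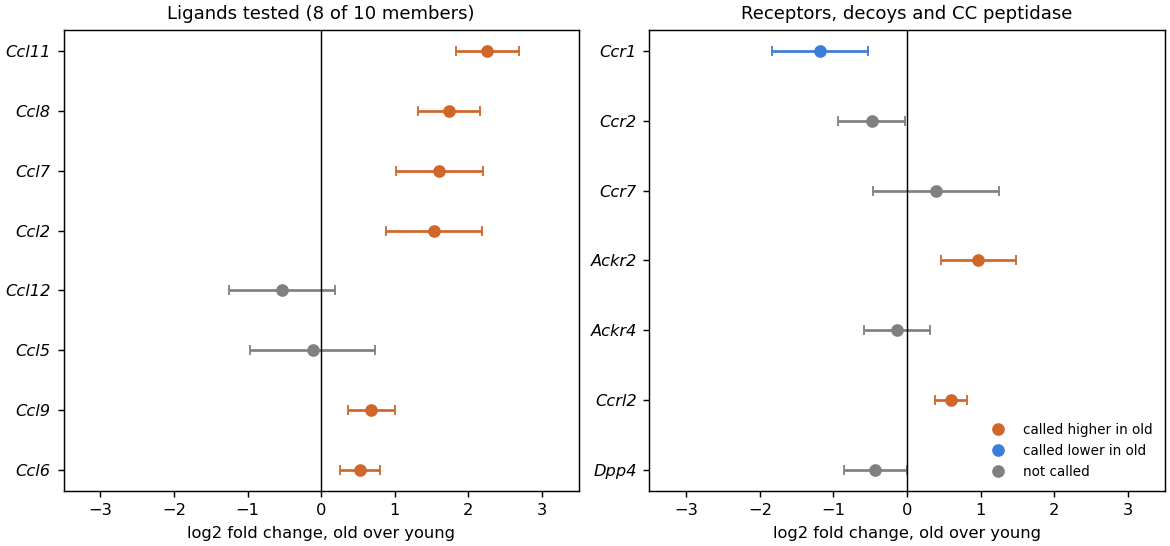
Log2 fold change of old over young (horizontal axis) with the 95% confidence interval from edgeR, for the 8 tested CC chemokines at the left and receptors, atypical receptors and Dpp4 at the right. Orange marks genes called higher, blue genes called lower and grey genes not called, with Ccl11 (2.26) and Ccr1 (-1.18) at the extremes of the genes shown.

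**Figure D4:**
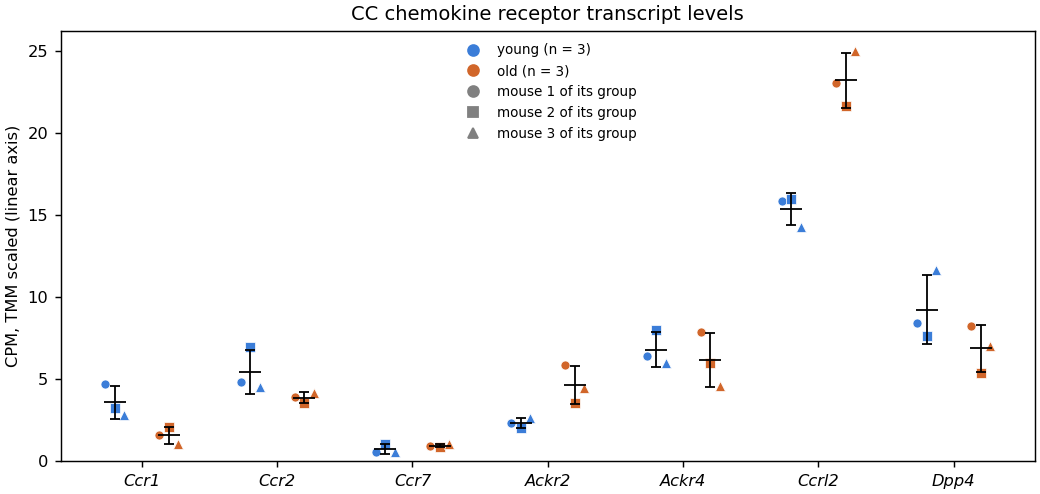
CPM (TMM scaled, linear axis) of receptors, atypical receptors and Dpp4, with each symbol a library, blue for young and orange for old hearts, and black bars for the mean and SD of 3 libraries. Ccr1 lay between 2.79 and 4.68 CPM in young and between 1.04 and 2.07 CPM in old libraries, while Ccrl2 and Ackr2 were higher in each old library than in any young one.

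Of 12 further CC chemokine genes 11 were listed and 4 tested, and edgeR called 0 of them, with 1 (Ccl27a) at an unadjusted p under 0.05. Beside 11.4% called higher and 10.6% lower over all tested genes, 0 of 4 does not set them apart from genes in general. DESeq2 and limma-voom also called 0, while library size scaling, limma on log2 FPKM of genes that passed a filter and the removal of gene length trends each called 1 lower. Ccl27a, a skin chemokine named here after its values were seen, was at 7.81 ± 1.63 CPM in young and 5.40 ± 1.01 CPM in old hearts (edgeR adjusted p = 0.0756). Ccl21a, a lymphatic chemokine and the most abundant of them, was at 76.9 ± 9.77 CPM in young and 70.6 ± 16.0 CPM in old hearts (-0.12 ± 0.15, edgeR adjusted p = 0.59). Its near-identical copies make the assignment of its reads uncertain. Ccl24, eotaxin-2 and like Ccl11 a Ccr3 ligand, was at 6.17 ± 0.525 CPM in young and 5.35 ± 0.937 CPM in old hearts. Its log2 value was -0.20 ± 0.18 (edgeR adjusted p = 0.44).

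Of 26 genes for cytokines that induce CC chemokines and for their receptors, 16 were tested. Of these 3 rose and 1 fell under TMM scaling, against 11.4% and 10.6% of all tested genes. With upper-quartile factors or when scaled by library size alone, 1 of the 16 rose and 3 fell. Their median log2 value was 0.06. Il4ra, the receptor chain shared by IL-4 and IL-13, which are strong inducers of eotaxin, rose by 0.47 ± 0.08, from 29.8 ± 1.68 to 41.4 ± 1.12 CPM (edgeR adjusted p = 0.0020). Il4 and Il13 themselves had 0 counts in every library. Il33, an alarmin of stromal cells, rose by 0.49 ± 0.15 and the oncostatin M receptor gene Osmr by 0.28 ± 0.08. Other receptor genes of the list leaned the other way. Il13ra1 had 709, 558 and 724 raw counts in young and 490, 553 and 493 in old libraries. Il6st had 3451, 2950 and 3433 in young and 2446, 2592 and 2819 in old libraries. Neither was called under TMM scaling, but both were called lower with upper-quartile factors and with library size alone. Il1rl1, which encodes the receptor of IL-33, fell by 0.67 ± 0.22 on the log2 scale (edgeR adjusted p = 0.0499), a call that no fit with a library left out kept. Tnf and Il6 failed the filter, but Il6 was called higher with no filter (4.04 ± 1.08 on the log2 scale, edgeR adjusted p = 0.0149) and by DESeq2, and Tnf was called higher without old 2. Tnf had 8, 9 and 7 raw counts in young and 11, 3 and 51 in old libraries, and Il6 had 0, 0 and 2 against 9, 1 and 26. For both, old 3 was highest and old 2 lowest of the old group, the order also seen for Ccl2 and Ccl7.

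Among 21 transcription factors and inhibitors that act on CC chemokine genes, edgeR called 11 higher and 0 lower, against 11.4% and 10.6% of all tested genes. Their median log2 value was 0.39. Cebpb rose by 1.76 ± 0.13, from 28.8 ± 5.87 to 97.3 ± 7.29 CPM (edgeR adjusted p = 6.85e-06), and Cebpd by 1.06 ± 0.18. Nfkbiz, a nuclear cofactor of NF-kappaB, rose by 1.73 ± 0.29, and Nfkbia, the NF-kappaB inhibitor, by 0.78 ± 0.14. Rela and Relb, both NF-kappaB subunits, rose by 0.26 ± 0.08 and 0.50 ± 0.15, and Irf5 by 0.45 ± 0.13. The other subunit genes Rel, Nfkb1 and Nfkb2 were not called. Rel had 233, 186 and 201 raw counts in young and 153, 165 and 125 in old libraries. It was called lower in several alternatives, among them upper-quartile factors, library size alone and no filter. Stat3, which carries signals of the IL-6 family, rose by 0.44 ± 0.08, while Stat6 was not called. Zfp36, which promotes decay of cytokine transcripts, rose by 1.91 ± 0.42, Jun by 1.5 ± 0.35 and Fos by 3.81 ± 0.78. Without old 3 these 3 values were 1.01, 0.78 and 2.04, and all stayed called. The calls of Il33, Osmr, Rela, Relb and Irf5 were lost when young 1, young 2 or young 3 was left out, those of Il33, Rela, Relb and Irf5 without old 1, that of Osmr without old 2 and those of Rela and Relb without old 3.

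Markers of cells that make or follow these chemokines were read in the same fit. Among 17 macrophage markers 7 were called higher and 1 lower, against 11.4% and 10.6% of all tested genes. Leaving out young 1, young 3 or old 1 left 4 higher, and library size scaling gave 6 higher and 4 lower. Their summed level was 777 to 825 CPM in young and 828 to 997 CPM in old libraries, and none was at 0. All 3 old libraries lay above all 3 young ones for 7 of the 17 markers and below them for 4. Over all tested genes this was the case for 19.6% and 20.3%, so the 4 of 17 were near the general share. Lyve1, one of the listed markers, rose by 0.88 ± 0.11 (edgeR adjusted p = 0.000292). The others called higher were Cd68, Mertk, Cbr2, C1qa, C1qb and Pf4. Cd68 had 262, 225 and 229 raw counts in young and 304, 360 and 300 in old libraries. Timd4, Mrc1, Cd163 and Folr2 of the same list were not called. Cx3cr1, the fractalkine receptor gene, fell by 2.15 ± 0.18 on the log2 scale (edgeR adjusted p = 1.65e-05). The pan-macrophage marker Adgre1 lay at 34.7, 35.5 and 35.3 CPM in young and 39.0, 32.0 and 30.2 CPM in old libraries, so it overlapped. The part of the macrophage markers in the chemokine and receptor values was not tested.

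The counts of calls in the lists that follow stand beside 11.4% called higher and 10.6% called lower over all tested genes. Of 9 monocyte markers 6 were tested and 1 rose, Nr4a1, which is also an immediate early gene. Without it the other 8 summed to 12.7 to 23.0 CPM in young and 11.1 to 16.1 CPM in old libraries. Of 9 eosinophil markers 6 were listed and 0 passed the filter, though without old 3 there was 1 that passed and was called higher, and Epx, the eosinophil peroxidase gene, had 0 counts in every library. The 6 together had 10, 8 and 13 raw counts in young and 18, 17 and 15 in old libraries. Ear2, a ribonuclease gene, gave 8, 4 and 9 of these in young and 18, 17 and 5 in old libraries. Of 12 fibroblast markers 2 rose and 1 fell, with a summed level of 4153 to 4481 CPM in young and 4131 to 5113 CPM in old libraries. Tcf21 was lower (-0.51 ± 0.13) and Mfap5 higher (0.40 ± 0.11), calls that held in 4 and 2 of 6 leave-one-out fits, and 0 fibroblast markers rose when any young library was left out. Of 10 endothelial markers 0 rose and 2 fell, Tek (-0.50 ± 0.10) and Kdr (-0.54 ± 0.17), the latter held in 1 of 6 leave-one-out fits, in which 1 to 4 fell. Of 10 smooth muscle and pericyte markers 3 rose and 3 fell, among the latter Pdgfrb (-0.69 ± 0.11). The number that rose was 0 without young 2 or young 3, and 1 without young 1, old 2 or old 3, with DESeq2, with upper-quartile factors and when scaled by library size alone, while 2 to 4 fell in these fits. Of 7 mesothelial markers 1 rose (Wt1, 1.67 ± 0.13), and 2 fell only when young 2 was left out. The median log2 value of the 7 was -0.56, so Wt1 went against the lean of its list. Upk3b had 251, 18 and 205 raw counts in young and 168, 33 and 89 in old libraries. Of 5 tested mast cell markers 1 fell (Kit, -1.42 ± 0.22), of 4 tested neutrophil markers 0 were called, and of 9 tested T, NK and B cell markers 2 rose and 1 fell. Of 7 red cell markers 1 fell, Hba-a2, but all 7 were called lower once young 1 was left out, 1 was without old 3, and 0 were called in each of the other 4 leave-one-out fits. Of the 10 cardiomyocyte markers 2 rose and 1 fell.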

How the data were processed

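The authors deposited raw gene counts (whole numbers) and FPKM values, which they made by scaling the counts by gene length and library total. GRCm39, HTSeq, HISAT2, Trimmomatic, StringTie, Cufflinks, Bowtie2 and DESeq are named in the submitters' processing notes; for versions, roles and strand setting, nothing was found (not given in the sources used here). The 12 single-sample tables held the same values as the series tables. The members and gene lists were chosen with earlier results of these data known, and some genes of the pathway lists are not reported here. Genes were tested with edgeR 4.0.16 (R 4.3.3, filterByExpr, TMM, no covariate) on the deposited counts of all 6 libraries and adjusted over 12893 genes. SE and 95% intervals were derived from the F statistic. Named genes were all members, called members of the pathway lists (else the most abundant), up to 2 called genes per marker list, and the 5 genes nearest to Ccl11. Alternatives were other scalings, filters, a replicate block, each library left out, DESeq2 1.42.0, limma-voom and limma 3.58.1 on log2 FPKM, and, added after seeing the data, removal of gene length trends (loess, span 0.5). Tested on simulated counts for old against young over 12786 genes, with 50 genes changed at each fold, edgeR found 52% of the genes set to 1.5-fold and 92% at 2-fold. Of its calls 5.1% were genes set to no change. Far fewer genes were changed there than the 2835 called in the data, and they were drawn over all count levels. These rates therefore need not hold for the data or for members with low counts. Promoters are RefSeq, GRCm38.p6, aligned with Biopython 1.88 (match 1, mismatch -1, gap -3 and -0.5). Symbols only are used for the counts, since this build is older than the authors'. No pair of replicates agreed within counting error (chi-square per degree of freedom 7.9 to 16.7).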

Additional observations from a re-analysis of the deposited data

How the results depend on the processing

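The 6 calls among the members held with RLE or upper-quartile factors, with library size alone, without a filter, with 1 CPM in 3 libraries, DESeq2, limma-voom, limma on log2 FPKM with a mean of at least 1, and after removal of gene length trends, where Ccl11 was at 2.09 and Ccl6 at 0.41. The 6 became 3 (Ccl7, Ccl8 and Ccl11) with limma on log2 FPKM, pseudocount 0.1 and no filter, where 1370 genes were called in all. With each library left out in turn 5 to 6 members were called higher and 0 lower, and between 1552 and 3041 genes in all, fewest without young 3 (1552) and young 1 (1557). The pathway genes called higher, 16, were 11 to 17 with a library left out, 10 with limma on log2 FPKM, pseudocount 0.1, and 3 with that and no filter. The 2 called lower, Ccr1 and Il1rl1, became 0 to 3 with a library left out (0 without young 1, 1 without young 3 or old 1), 6 when scaled by library size alone, 5 by upper quartiles, 4 with 1 CPM in 3 libraries or limma on filtered log2 FPKM with either pseudocount, and 1 with RLE factors, DESeq2, limma-voom or limma on unfiltered log2 FPKM. The causes of these shifts were not tested, beyond that fewer libraries or other scaling entered. Of 868 values of named genes under alternatives, 747 kept direction and side of the threshold, 117 were no longer called and 0 called values changed direction. Same-numbered libraries were not treated as pairs in the main fit, since the labels name no pairing. The r of their deviations from the group mean was 0.08, 0.08 and 0.01, and not every library was closest to its own number. With 3 libraries per group these values cannot decide whether the numbers stand for pairs. With a replicate block 2734 genes, the same 6 members and 15 pathway genes higher and 3 lower were called. Members under about 10 counts per library are limited by depth.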

Other observations

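The 5 genes outside the members whose profile over the 6 libraries was nearest to that of Ccl11 were Cyp2b10, Amy1, Sh3gl2, Bdh1 and Csrnp1, at root mean square distances of 0.25 to 0.26 on the log2 scale relative to the young mean. Predicted genes, Riken clones and pseudogenes were left out of this search. Since the genes were picked by this distance, fold changes near that of Ccl11 were fixed by the choice and are no separate result. Cyp2b10, a xenobiotic-metabolising cytochrome, rose by 2.13 ± 0.33, Amy1, an amylase, by 2.05 ± 0.11, and Sh3gl2, endophilin A1, by 2.13 ± 0.20. Bdh1, an enzyme of ketone body use, rose by 2.12 ± 0.08 and Csrnp1, a nuclear protein gene, by 2.07 ± 0.22. Among the members Ccl8 was nearest to Ccl11 (0.42), followed by Ccl7 (0.57) and Ccl2 (0.70). The distance includes the shift between the groups, and this order is also that of their fold changes.

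Of 9 tested T, NK and B cell markers 2 were called higher and 1 lower, against 11.4% and 10.6% of all tested genes. Cd3g, a chain of the T cell receptor complex, had 6, 6 and 5 raw counts in young and 27, 16 and 14 in old libraries (log2 fold change 1.83 ± 0.40, edgeR adjusted p = 0.00808). Cd3e, the other marker called higher, had 3, 7 and 3 raw counts in young and 12, 11 and 14 in old libraries. Cd3d, not among the calls, had 5, 4 and 4 in young and 14, 7 and 10 in old libraries. Without young 1, young 3, old 1 or old 3, only 1 marker of the list was called higher. Gzma, a granzyme of natural killer and cytotoxic T cells, had 14, 42 and 13 raw counts in young and 2, 4 and 3 in old libraries (-2.80 ± 0.66, edgeR adjusted p = 0.0110). Young 2 was the highest library for Gzma and also for Ccl5. Cd4 had 29, 12 and 33 raw counts in young and 38, 20 and 27 in old libraries, and it overlapped, as did Cd8a, Cd2 and Nkg7.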
